A study of Mus musculus with 18 samples.

Results

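The insulin-like growth factor (IGF) system was followed in the mouse ovary through 10 genes, chosen by name with earlier results of these data known. The genes are the ligands Igf1 and Igf2, the receptors Igf1r and Igf2r, and the binding proteins Igfbp2, Igfbp3, Igfbp4, Igfbp5, Igfbp6 and Igfbp7. They are 10 of the 55416 genes in the deposited tables. All 10 were among the 16959 genes with enough counts to be tested.

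Whole ovaries of 18 wildtype female Balb/c mice were profiled, 1 library per ovary sample, with 6 mice in each of 3 groups. The young controls (YC) were 8 weeks old and received distilled water. The aged controls (OC) were 40 weeks old and received distilled water. The treated aged mice (OC+SM) were 40 weeks old and were given the herbal decoction Samul-tang orally, 2.5 g/kg each time. Water or decoction was given 5 times a week for 4 weeks. All groups then shared the same hormone regime, with 5 IU of PMSG (a gonadotropin from mare serum that drives follicle growth) and, 48 hours later, 5 IU of hCG (a gonadotropin of the human placenta that triggers ovulation). Ovaries were collected 16 hours after hCG. Every value therefore describes a stimulated ovary around ovulation, and no group was left unstimulated. OC and OC+SM mice shared cages behind a separation, with no record here of which mouse sat with which. The comparison of OC with YC asks what differs with age, and that of OC+SM with OC what differs with Samul-tang in the aged ovary.

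IGF1 and IGF2 are secreted growth factors that act through the tyrosine kinase receptor encoded by Igf1r. In the rodent ovary, IGF1 made by granulosa cells is known to enhance the response of follicles to gonadotropins. The receptor encoded by Igf2r carries no kinase and takes IGF2 to the lysosome for breakdown. The high-affinity binding proteins hold the ligands away from the receptor, and proteases that cut them release the ligands again. In follicles, IGFBP4 and IGFBP5 are classed as inhibitors of gonadotropin action, and the metalloprotease PAPP-A cleaves both. IGFBP7 binds IGFs only weakly and is also a component of vessel walls and matrix.

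In units of 1000000 expected counts, the libraries held 9.05 to 14.15 in YC, 11.61 to 13.43 in OC and 14.2 to 20.35 in OC+SM. The OC+SM libraries were all deeper than the OC libraries (17.24 ± 2.05 against 12.48 ± 0.714 in the same units, SD, n = 6; two-sided exact permutation p = 0.00216, the smallest that regrouping 12 libraries allows; Benjamini-Hochberg adjusted p = 0.00649 over 6 such tests). The single gene with the most counts also took a smaller share of OC+SM libraries, 10.73 ± 3.13% against 15.45 ± 1.70% in OC (two-sided exact permutation p = 0.00433, adjusted p = 0.00866). A preparation or sequencing batch that coincides with treatment cannot be told apart from it. The third YC library and the sixth OC+SM library stood apart from their groups, and results that rest on them are given with and without them. Markers of granulosa, theca, luteal and oocyte cells were present in every group, and markers of liver (Alb, Ttr and Apoa2), a major source of circulating IGF1, summed to at most 0.426 CPM (counts per 1000000) in any library. The 3 oviduct markers summed to at most 2.30 CPM.

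Levels are given as CPM after TMM scaling of the library totals. Differences are log2 fold changes ± standard error (SE) from 1 edgeR quasi-likelihood fit of all 18 libraries. A gene counted as called where its p, adjusted over all 16959 genes, was under 0.05. Each p-value sets a group difference against the spread between mice, estimated over all 3 groups. It takes the mice as independent, although OC and OC+SM mice shared cages.

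With age, 5 of the 10 genes were called, where 11.3% of all genes tested were called. The genes were chosen with earlier results of these data known, so such counts describe them and do not test the set. Igf2, Igfbp3 and Igfbp4 were higher in aged ovaries, against a background of 5.25% of genes called higher. Igfbp5 and Igfbp6 were lower, against 6.03% called lower. The median log2 difference was 0.07 over the 10 genes and 0.01 over all genes. With Samul-tang, 1 of the 10 was called, Igf1r, which was lower in treated ovaries, where 1.04% of all genes were called, 0.548% higher and 0.489% lower. The median was 0.00 for the 10 genes and 0.01 for all genes. The plot of log2 fold changes shows both comparisons side by side, together with that of OC+SM with YC. The age and Samul-tang comparisons share the OC libraries, so a high or low OC value moves a gene's points for them in opposite directions.

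**Figure D1:**
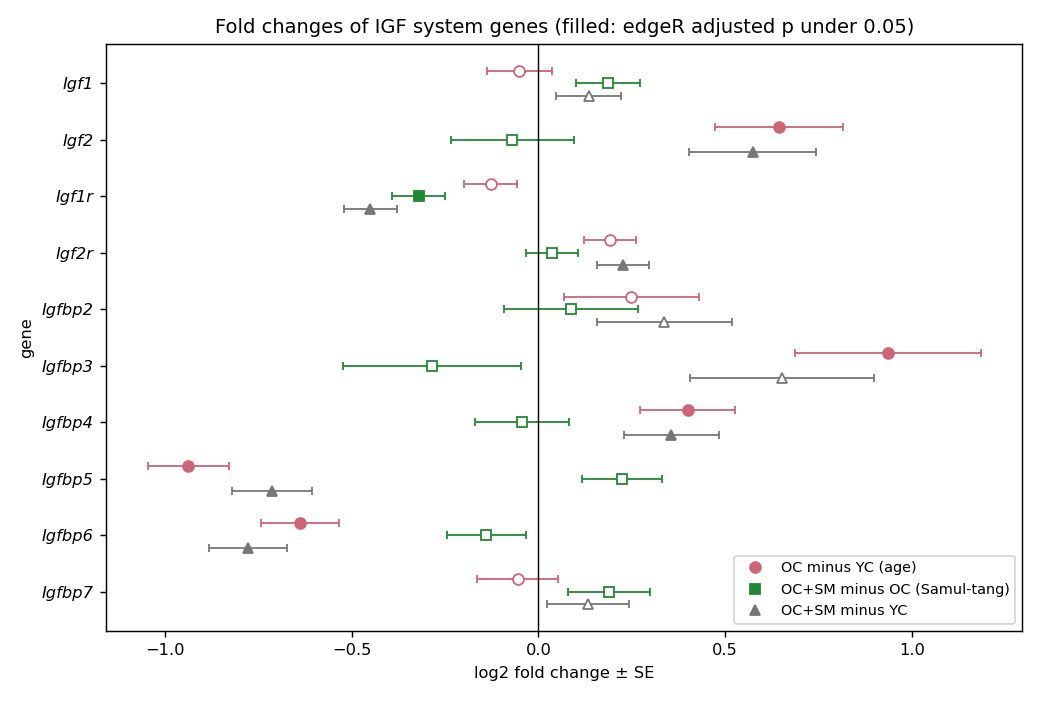
Log2 fold change ± SE (horizontal axis) of the 10 IGF system genes (vertical axis) in the fitted comparisons, with filled points for edgeR adjusted p under 0.05. With age the filled points are Igf2, Igfbp3 and Igfbp4 to the right of 0 and Igfbp5 and Igfbp6 to the left, and with Samul-tang the only filled point is Igf1r, at -0.32. For OC+SM minus YC the filled points are Igf2, Igf2r and Igfbp4 to the right and Igf1r, Igfbp5 and Igfbp6 to the left.

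Of the ligands, Igf1 was not called in any of the 3 comparisons of tag counts. Its level was 75.1 CPM at the lowest, 93.7 at the median and 107 at the highest in YC. The OC values were 79.2, 91.0 and 93.9 CPM, and the OC+SM values were 87.6, 100.3 and 125 CPM. The OC libraries lay within the span of the YC libraries, and 5 of 6 OC+SM libraries lay above every OC library. The age difference was -0.05 ± 0.09 (ratio 0.965, 95% interval 0.858 to 1.086; edgeR adjusted p = 0.784). The Samul-tang difference was 0.19 ± 0.09 (ratio 1.14, 95% interval 1.012 to 1.279, unadjusted p = 0.0415) and was not called by edgeR after adjustment over all genes (adjusted p = 0.272).

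The deposited tables also carry, for each gene, the mean length of its transcripts weighted by their estimated abundance. For Igf1 this length was higher in OC than in YC, a difference that was not called after adjustment over genes. In YC the deposited length was 2450 bases at the lowest, 2793 at the median and 3124 at the highest. It was 3404, 3764 and 4024 bases in OC, and 3051, 3642 and 4307 bases in OC+SM. The YC and OC libraries did not overlap, and the share of all genes whose lengths did not overlap was not computed. Igf1 has 8 transcripts in these tables, of which Igf1-202 is 7052 bases long and the others are 510 to 2292 bases long (GENCODE M21), and both the share of Igf1-202 and the mix of the others can move the mean. In a limma fit of log2 length over 8521 genes, the age difference of Igf1 was 0.43 ± 0.08 with an unadjusted p of 7.50e-05, but it was not called (limma adjusted p = 0.123). In that comparison 0.0117% of genes were called. The difference between OC+SM and YC was 0.39 ± 0.08 and was called (limma adjusted p = 0.0204, with 2.77% of genes called). Between OC+SM and OC it was -0.04 ± 0.08 (limma adjusted p = 0.886, with 1.03% of genes called). Whether 3' tags can separate these transcripts was not tested, and the length was examined after its values had been seen.

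The length enters the deposited TPM values (transcripts per 1000000), which divide by it. The deposited TPM of Igf1 was 32.9 ± 4.28 in YC, 22.9 ± 2.47 in OC and 27.3 ± 6.49 in OC+SM (SD, n = 6). On log2(TPM + 1) the age difference of Igf1 was -0.50 ± 0.13 and was called (limma adjusted p = 0.0157). Over all alternatives the adjusted p of Igf1 with age ran from 0.0157 to 0.987, and it was called on the 2 TPM scales alone. Igf1 was thus not called with age when tags were counted and was called lower on the deposited scale per length. The tag count, length and TPM of each mouse are plotted together.

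**Figure D2:**
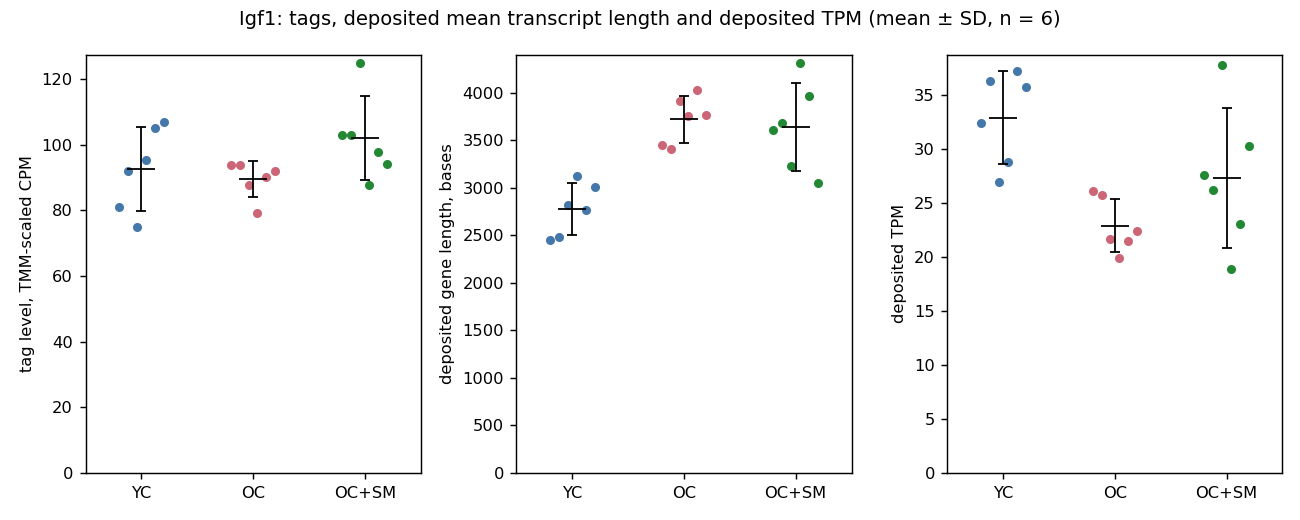
Igf1 in each mouse by group (horizontal axis) as TMM-scaled CPM, as deposited gene length in bases and as deposited TPM, with the mean ± SD of 6 mice as bars. The CPM values of YC and OC overlap, while every OC length lies above every YC length and every OC value of TPM lies below every YC value.

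Igf2 was low in every group and rose with age. Its level was 3.14 CPM at the lowest, 4.90 at the median and 5.54 at the highest in YC. The OC values were 5.53, 6.58 and 10.7 CPM, and 5 of the 6 OC libraries lay above all YC libraries. The OC+SM values were 5.43, 6.89 and 8.49 CPM, close to those of OC. Between YC and OC the log2 difference was 0.64 ± 0.17, a ratio of 1.56 (edgeR adjusted p = 0.0142). Samul-tang gave -0.07 ± 0.16 (ratio 0.953, 95% interval 0.762 to 1.191; edgeR adjusted p = 0.878). These levels rest on 43 to 68 counts per library in YC, 63 to 136 in OC and 104 to 159 in OC+SM. Without the fourth OC library, which had the highest level, the age difference of Igf2 was 0.50 and missed the threshold (edgeR adjusted p = 0.0515). On log2(TPM + 1) it was 0.41 and also missed it (limma adjusted p = 0.0785). The call of Igf2 held in 29 of 32 alternatives, with adjusted p from 0.00469 to 0.0785.

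Igf1r was the member that differed with Samul-tang. In YC its level was 283 CPM at the lowest, 307 at the median and 344 at the highest. In OC the corresponding values were 260, 282 and 311 CPM, and in OC+SM 196, 225 and 259 CPM. All 6 OC+SM libraries lay below every OC library and below every YC library, with the highest OC+SM value just under the lowest OC value. Igf1r fell by 0.32 ± 0.07 on the log2 scale from OC to OC+SM (log2 fold change -0.32, ratio 0.800, 95% interval 0.727 to 0.881; edgeR adjusted p = 0.0273). It was 1 of the 1.53% of genes whose OC and OC+SM libraries did not overlap. With age Igf1r differed by -0.13 ± 0.07, which was not called (edgeR adjusted p = 0.282). Against YC, the OC+SM level was lower by 0.45 (log2 fold change -0.45 ± 0.07, ratio 0.732, edgeR adjusted p = 9.75e-05).

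The Samul-tang call of Igf1r kept its direction in all 32 alternative fits, from -0.37 to -0.23, and its adjusted p stayed under 0.05 in 21 of them (0.00248 to 0.501 over all 32). Leaving out OC 2, OC 3, OC 4, OC+SM 1 or OC+SM 3 gave -0.31, -0.31, -0.29, -0.33 and -0.29 for Igf1r, with edgeR adjusted p from 0.0578 to 0.0793. Igf1r also missed the threshold with only the 12 compared libraries (-0.33, adjusted p = 0.0633), without OC+SM 1, 2 and 3 (-0.33, adjusted p = 0.147) and on log2(TPM + 1) (-0.23, limma adjusted p = 0.115). With the share of the most abundant gene as a covariate, Igf1r was at -0.27 (edgeR adjusted p = 0.501). With a trend over gene length removed from each library it was at -0.23 (edgeR adjusted p = 0.082). Igf1r is encoded by a long transcript, with a deposited length of 9638 ± 339 bases in OC and 9171 ± 195 in OC+SM (SD, n = 6; limma log2 difference -0.07 ± 0.02, adjusted p = 0.139). The part of library depth, of the most abundant gene's share and of transcript length in the Igf1r difference was not tested beyond these fits. The plot of alternative fits shows them in order.

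**Figure D3:**
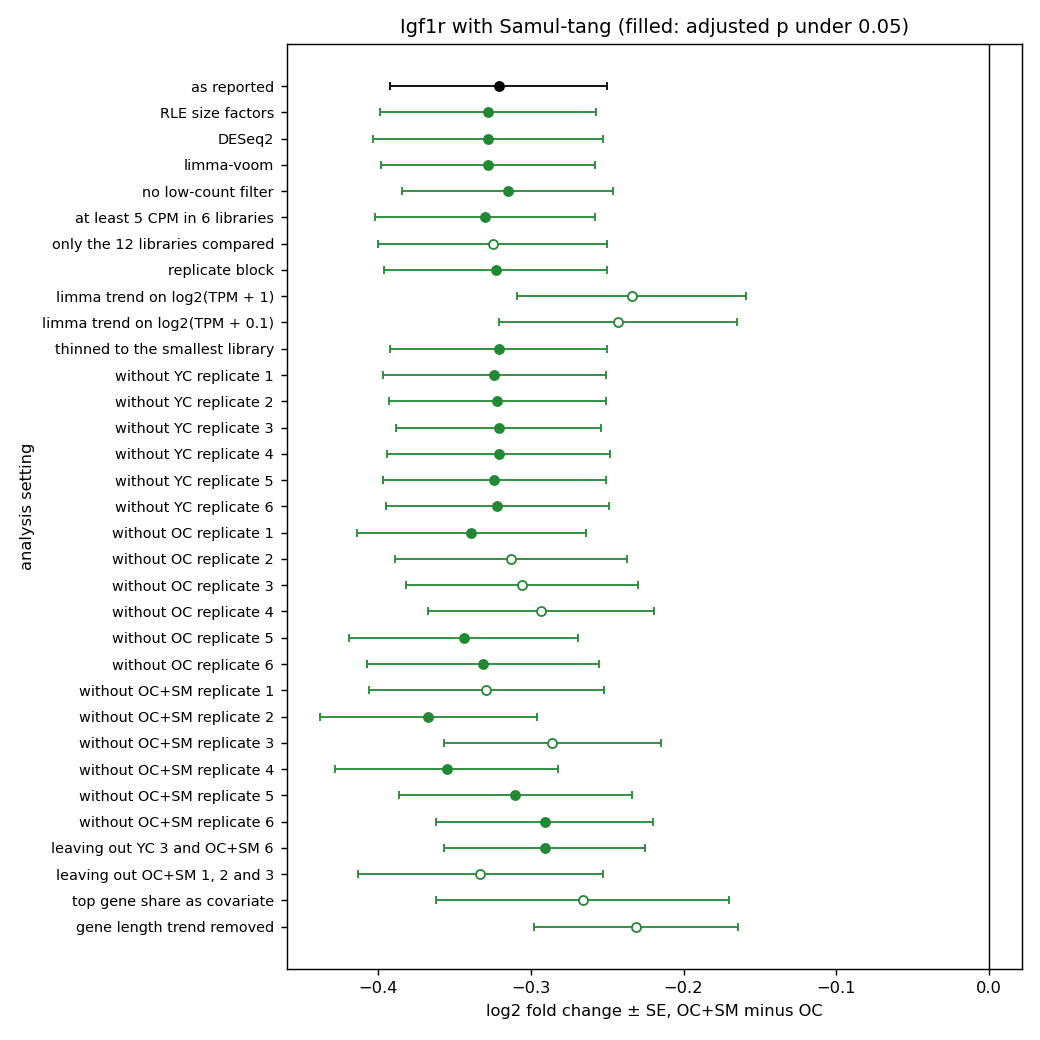
Log2 fold change of Igf1r, OC+SM minus OC (horizontal axis, ± SE), in the reported fit and in the 32 alternatives (vertical axis), with filled points for an adjusted p under 0.05. All points lie to the left of 0, between -0.37 and -0.23, and 21 of the 32 alternatives are filled.

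The promoter of Igf1r is shown as that of the member that differed with treatment. It covers the 250 bases before the annotated start (RefSeq, GRCm38.p6, chr7:67952007-67952256, plus strand), with capitals for GGGCGG, the core of a GC box, which 32.7% of 32851 promoters of this length hold on either strand.
Igf1r: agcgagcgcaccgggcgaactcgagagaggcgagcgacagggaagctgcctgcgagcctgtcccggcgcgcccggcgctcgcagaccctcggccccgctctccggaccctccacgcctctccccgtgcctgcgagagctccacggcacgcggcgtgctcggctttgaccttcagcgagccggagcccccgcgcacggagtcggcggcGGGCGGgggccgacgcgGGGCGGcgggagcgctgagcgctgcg
GGGCGG occurs 2 times, and neither TATAAA nor CCAAT occurs on either strand. The window is 77.6% G and C.

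Igf2r, the clearance receptor, was slightly higher in aged ovaries without passing the test. In YC it was at 60.3 CPM at the lowest, 69.8 at the median and 77.3 at the highest. The OC values were 73.1, 80.9 and 84.9 CPM, with 4 of 6 libraries above all of YC. The OC+SM values were 75.7, 79.5 and 98.4 CPM. The age difference of Igf2r was 0.19 ± 0.07 (ratio 1.14, edgeR adjusted p = 0.0829), and without OC+SM 1, which enters the shared estimate of spread, it passed with edgeR adjusted p = 0.0487. Of the 32 alternatives 5 called it with age (adjusted p 0.02 to 0.251). The Samul-tang difference was 0.04 ± 0.07 (ratio 1.03, 95% interval 0.932 to 1.127; edgeR adjusted p = 0.847). OC+SM was above YC by 0.23 ± 0.07 (edgeR adjusted p = 0.0216), a call that was lost without YC 3 (0.19, adjusted p = 0.0543) and without OC+SM 1 (0.17, adjusted p = 0.0741), and held in 26 of 32 alternatives (0.000585 to 0.264). The antisense RNA Airn overlaps Igf2r, and the sources used here do not state the strand setting of the counting, so reads of the pair may be mixed.

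**Figure D4:**
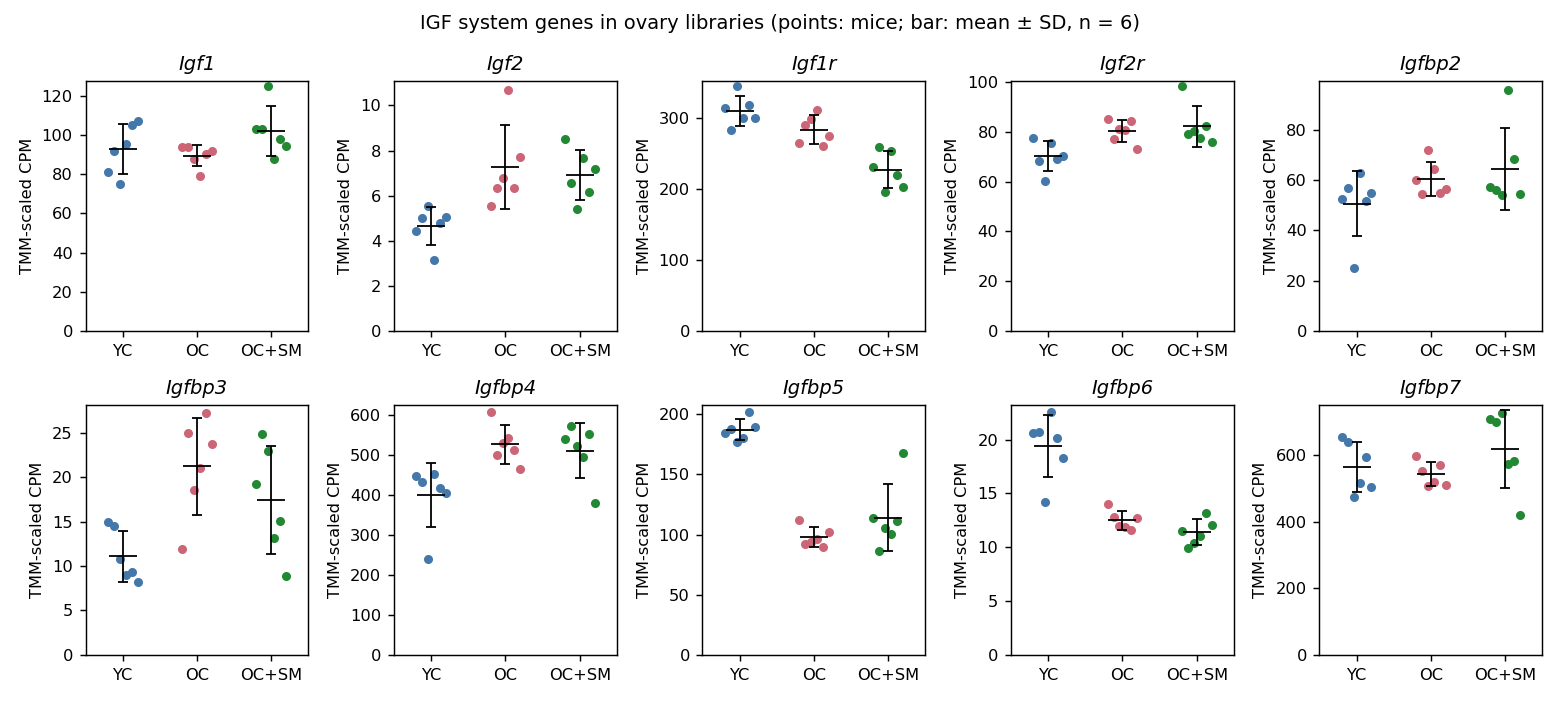
TMM-scaled CPM (vertical axes, from 0) of the 10 genes in each mouse, by group (horizontal axes), with the mean ± SD of 6 mice as bars. Igfbp5 and Igfbp6 are lower and Igfbp4 higher in OC than in YC without overlap, and Igf1r is lower in OC+SM than in OC without overlap.

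The binding proteins moved in opposite directions with age. Igfbp5 fell to 0.522 of its young level. It was at 177 CPM at the lowest, 186 at the median and 202 at the highest in YC, and at 89.5, 95.0 and 112 CPM in OC. In OC+SM it was at 86.2, 108 and 168 CPM. Every aged library, treated or not, lay below every young library. The age difference of Igfbp5 was -0.94 ± 0.11 (ratio 0.522, 95% interval 0.451 to 0.605; edgeR adjusted p = 7.44e-06), and the call held in all 32 alternatives. Samul-tang gave 0.22 ± 0.11 (ratio 1.17, edgeR adjusted p = 0.297), which was 0.08 without YC 3 and OC+SM 6 (edgeR adjusted p = 0.573), as OC+SM 6 held the 168 CPM. Its adjusted p ran from 0.155 to 0.611 over the alternatives. OC+SM remained lower than YC by 0.71 (log2 fold change -0.71 ± 0.11, edgeR adjusted p = 9.28e-05).

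Igfbp6, a binding protein with a preference for IGF2, fell as well. In YC it was at 14.2 CPM at the lowest, 20.3 at the median and 22.6 at the highest. The values were 11.6, 12.3 and 14.0 CPM in OC and 9.95, 11.2 and 13.2 CPM in OC+SM. The lowest young library was just above the highest aged one, and the groups did not overlap. For Igfbp6 the age difference was -0.64 ± 0.10 (ratio 0.643, edgeR adjusted p = 1.92e-04) and was called in all 32 alternatives. The Samul-tang difference was -0.14 ± 0.11 (ratio 0.907, 95% interval 0.786 to 1.048; edgeR adjusted p = 0.531). Between OC+SM and YC it was -0.78 ± 0.10 (edgeR adjusted p = 1.40e-05).

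The promoters of Igfbp5 and Igfbp6 are set side by side because these genes fell together with age, and that of Igfbp4 because it rose. Each covers 250 bases (RefSeq, GRCm38.p6), at chr1:72874866-72875115 on the minus strand for Igfbp5, chr15:102143936-102144185 on the plus strand for Igfbp6 and chr11:99040994-99041243 on the plus strand for Igfbp4. Capitals mark TATAAA (the core of a TATA box), the pentamer CCAAT, or GGGCGG on either strand, which 12.4%, 33.8% and 32.7% of all promoters of this length hold in that order.
Igfbp5: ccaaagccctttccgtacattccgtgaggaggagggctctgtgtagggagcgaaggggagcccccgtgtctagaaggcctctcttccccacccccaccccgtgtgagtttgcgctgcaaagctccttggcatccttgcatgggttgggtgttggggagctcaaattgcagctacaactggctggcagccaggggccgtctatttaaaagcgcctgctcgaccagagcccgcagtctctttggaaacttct
Igfbp6: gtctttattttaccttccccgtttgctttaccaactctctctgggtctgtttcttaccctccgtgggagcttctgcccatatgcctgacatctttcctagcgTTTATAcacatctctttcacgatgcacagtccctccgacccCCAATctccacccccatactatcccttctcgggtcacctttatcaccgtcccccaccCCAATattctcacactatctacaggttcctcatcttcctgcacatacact
Igfbp4: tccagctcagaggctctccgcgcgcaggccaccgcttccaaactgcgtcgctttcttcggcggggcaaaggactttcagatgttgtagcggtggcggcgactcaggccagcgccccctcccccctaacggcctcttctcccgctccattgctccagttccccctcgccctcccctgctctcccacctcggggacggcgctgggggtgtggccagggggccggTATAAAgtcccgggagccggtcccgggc
The Igfbp5 window holds none of the 3 motifs. The Igfbp6 window holds CCAAT 2 times and TATAAA 1 time on the opposite strand. The Igfbp4 window holds TATAAA 1 time, beginning 28 bases before the start. The Igfbp5 gene lies next to Igfbp2 on chromosome 1, and Igfbp2 was not called with age.

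Igfbp3, the main carrier of IGFs in blood, rose with age. Its level was 8.22 CPM at the lowest, 10.04 at the median and 14.9 at the highest in YC. The OC values were 11.9, 22.4 and 27.2 CPM, with 5 of 6 libraries above all of YC. The OC+SM values were 8.92, 17.2 and 24.9 CPM and spanned most of both other groups. For Igfbp3 the age difference was 0.94 ± 0.25 (ratio 1.91, 95% interval 1.366 to 2.679; edgeR adjusted p = 0.0195) and was called in all 32 alternatives. Samul-tang gave -0.28 ± 0.24 (ratio 0.821, edgeR adjusted p = 0.589). The difference of Igfbp3 between OC+SM and YC was 0.65 ± 0.25 (edgeR adjusted p = 0.0669). It passed without OC 1 (adjusted p = 0.0427) and without OC+SM 6 (0.78, adjusted p = 0.0161), and in 5 of 32 alternatives in all (0.0161 to 0.743).

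Igfbp4 was one of the 2 most abundant members and rose with age. In YC it was at 239 CPM at the lowest, 425 at the median and 452 at the highest. The values were 464, 520 and 607 CPM in OC and 381, 531 and 573 CPM in OC+SM. All 6 OC libraries lay above all 6 YC libraries, and the lowest YC value, in YC 3, lay far below the next, at 405 CPM. The age difference of Igfbp4 was 0.40 ± 0.13 (ratio 1.32, edgeR adjusted p = 0.0479). Without YC 3 it was 0.29 (edgeR adjusted p = 0.0237). The call was close to the threshold and held in 12 of 32 alternatives. Leaving out YC 2, 5 or 6, OC 1, 2, 3, 4 or 5, or OC+SM 1, 2, 3, 4 or 5 gave 0.35 to 0.42 with edgeR adjusted p from 0.051 to 0.102. The other alternatives that lost it, limma-voom, no filter, 12 libraries, both TPM scales, thinning and leaving out OC+SM 1, 2 and 3, had adjusted p from 0.0528 to 0.125. Samul-tang gave -0.04 ± 0.13 (ratio 0.971, 95% interval 0.818 to 1.152; edgeR adjusted p = 0.907). OC+SM exceeded YC by 0.36 ± 0.13 (edgeR adjusted p = 0.0499), and this call of Igfbp4 held in 11 of 32 alternatives (adjusted p 0.000736 to 0.432). It was lost on leaving out any of YC 2, 5 and 6, OC 2 to 6 or OC+SM 1 to 5 (0.32 to 0.38, adjusted p 0.0534 to 0.109). RLE scaling, no filter, 12 libraries, both TPM scales and thinning also lost it. So did leaving out OC+SM 1, 2 and 3 and taking the most abundant gene's share as a covariate. The deposited counts of Igfbp4 were not whole in any library, so some of its reads were shared with other features. The same held for Igfbp7. Counts of Igf1r were whole in 12 of 18 libraries and up to 0.47 from whole in the rest. Those of Igf2 were whole in 13 libraries, of Igf1 in 14, and of Igfbp5 and Igfbp6 in 17 each.

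Igfbp2 and Igfbp7 were not called in any of the 3 comparisons. Igfbp2, a binding protein of ligand in blood and tissue, was at 25.2 CPM at the lowest, 53.6 at the median and 62.6 at the highest in YC. It was at 54.6, 58.2 and 71.8 CPM in OC and at 54.1, 56.5 and 95.7 CPM in OC+SM. Single libraries set the ends of these ranges, YC 3 the lowest and OC+SM 4 the highest. The age difference of Igfbp2 was 0.25 ± 0.18 (ratio 1.19, 95% interval 0.930 to 1.519; edgeR adjusted p = 0.443) and 0.12 without YC 3 and OC+SM 6 (adjusted p = 0.646, with 0.338 to 0.665 over the alternatives). The Samul-tang difference was 0.09 ± 0.18 (ratio 1.06, 95% interval 0.833 to 1.355; edgeR adjusted p = 0.855).

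Igfbp7 was at 473 CPM at the lowest, 555 at the median and 655 at the highest in YC. It was at 506, 535 and 596 CPM in OC and at 421, 640 and 726 CPM in OC+SM. The treated libraries spread beyond both control groups, with 3 above all OC libraries and 1 below them. For Igfbp7 the age difference was -0.06 ± 0.11 (ratio 0.962, 95% interval 0.829 to 1.115; edgeR adjusted p = 0.817). Samul-tang gave 0.19 ± 0.11 (ratio 1.14, 95% interval 0.983 to 1.323; edgeR adjusted p = 0.395). Without YC 3 and OC+SM 6 the Samul-tang difference of Igfbp7 was 0.28 and was called (edgeR adjusted p = 0.0487), the only one of 32 alternatives to do so (0.0487 to 0.926).

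Compared per length, on the deposited TPM scale, Igfbp7 led in every group, with a level of 516 ± 66.6 in YC, 482 ± 37.1 in OC and 554 ± 106 in OC+SM (SD, n = 6). Igfbp4 was next (101 ± 19.2 TPM in YC and 131 ± 13.5 in OC), then Igfbp2 (40.9 ± 9.89 and 47.3 ± 6.87). In YC, Igfbp2, Igfbp5 (33.5 TPM), Igf1 (32.9 TPM) and Igf1r (30.9 TPM) followed one another with overlapping ranges. The overlap of Igfbp2 with Igfbp5 rested on YC 3, where Igfbp2 was at 21.4 TPM. In the other YC libraries Igfbp2 was at 41.9 to 49.4 TPM, above the highest Igfbp5 value of 36.1 TPM. In OC the levels were 27.5 TPM for Igf1r, 22.9 for Igf1 and 17.1 for Igfbp5, and only Igf1r and Igf1 overlapped among them. Igf2 came last in every group, at 2.07 to 3.02 TPM. Igf2r and Igfbp3 took adjoining places, without overlap in YC (7.60 and 4.52 TPM) and with overlap in OC (8.67 and 8.39 TPM). This order depends on the division by length, which does not suit 3' tags. By tag level, without it, Igf1r (309 CPM) and Igfbp5 (187 CPM) stood above Igfbp2 (50.6 CPM) in YC, and Igfbp7 and Igfbp4 overlapped in OC (542 and 526 CPM).

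The 6 binding proteins summed to 1230 ± 159 CPM in YC, 1259 ± 77.1 in OC and 1335 ± 157 in OC+SM (SD, n = 6). Their makeup shifted within that sum. Igfbp5 held 15.4 ± 1.95% of the sum in YC, 7.75 ± 0.553% in OC and 8.87 ± 3.60% in OC+SM. Igfbp4 held 32.1 ± 3.68%, 41.7 ± 1.67% and 38.2 ± 1.93%. The lowest young share of Igfbp5 was 13.4% and the highest share in OC was 8.70%. For Igfbp4 the highest young share was 36.4% and the lowest in OC was 39.7%. On the deposited TPM scale the same shares were smaller, 4.74% and 2.45% for Igfbp5 and 14.1% and 18.7% for Igfbp4 in YC and OC, because Igfbp7 then held 72.3% and 69.2%. These shares describe the members and were not tested.

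Between OC+SM and YC, 6 of the 10 genes were called, where 22.4% of all genes were called. Igf2, Igf2r and Igfbp4 were higher, against a background of 11.5% called higher, and Igf1r, Igfbp5 and Igfbp6 were lower, against 10.9%. Igf1r, Igfbp5 and Igfbp6 did so without overlap between the groups, against 9.50% of all genes. With age alone, Igfbp4, Igfbp5 and Igfbp6 did not overlap, against 7.38%. This comparison shares its libraries with the other comparisons and adds no independent samples. Its count, too, is of genes chosen with earlier results known.

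A further 32 genes of the IGF and insulin pathway were listed, of which 25 had enough counts to be tested. With age 4 of the 25 were called, 1 higher and 3 lower (11.3% of all genes tested were called). With Samul-tang none of the 25 was called by edgeR, DESeq2 or limma-voom, and 5 had an unadjusted edgeR p under 0.05, as did 16.9% of all genes tested. The median log2 difference of the 25 was -0.04 with age and 0.04 with Samul-tang. The 7 genes not tested were Igfbp1, Igfals, Igfbpl1, Igf2os, Igf2bp1, Insrr and Irs4, none above 12 counts in any library. Igfals encodes the partner that holds IGFs and IGFBP3 in the large circulating complex.

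Among carriers and proteases that release the ligands, 1 of 6 tested genes was called with age, against 11.3% of all genes. Htra1, a secreted serine protease that can cut binding proteins, was at 144 to 203 CPM in YC (median 164), at 113 to 134 CPM in OC (median 121) and at 89.2 to 129 CPM in OC+SM (median 121). YC and OC did not overlap, and the age difference was -0.46 ± 0.09 (edgeR adjusted p = 0.00102). Pappa encodes the protease that cuts IGFBP4 and IGFBP5. It was at 22.2 to 33.3 CPM in YC (median 27.8), 34.8 to 64.1 in OC (median 48.1) and 8.98 to 51.3 in OC+SM (median 30.01). OC lay above YC without overlap, and OC+SM spread across both. The age difference of Pappa was 0.78 ± 0.28 (edgeR adjusted p = 0.0952) and the Samul-tang difference was -0.67 ± 0.28 (edgeR adjusted p = 0.232). Its age difference passed the threshold without OC+SM 6 (0.77, adjusted p = 0.00865), which enters the shared estimate of spread, and in 4 of 32 alternatives in all (0.00158 to 0.195). Stc1, whose product stanniocalcin-1 inhibits PAPP-A, had an age difference of 0.51 ± 0.26 (edgeR adjusted p = 0.245), with 25.0 ± 12.3 CPM in YC and 35.2 ± 6.08 in OC. Without YC 3 the age difference of Stc1 was 0.80 (adjusted p = 0.013, with 0.013 to 0.406 over the alternatives).

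Among genes of RNA control and imprinting, 1 of 3 tested was called with age, against 11.3% of all genes. Igf2bp2, an RNA-binding protein named for its binding of Igf2 transcripts, fell with age from 9.75 to 14.9 CPM in YC (median 13.3) to 3.55 to 6.45 CPM in OC (median 4.34). It was at 3.15 to 7.75 CPM in OC+SM (median 6.35). No aged library reached the lowest young one, and the age difference was -1.37 ± 0.19 (edgeR adjusted p = 3.72e-05). With Samul-tang it was 0.35 ± 0.20 (edgeR adjusted p = 0.380). Igf2 itself was higher with age, as given above. H19, the maternally expressed RNA at the imprinted Igf2 locus, was at 13.1 ± 2.37 CPM in YC and 10.4 ± 1.54 in OC (-0.33 ± 0.22, edgeR adjusted p = 0.394). Igf2bp3 was at 3.82 ± 0.811 and 3.16 ± 0.881 CPM (-0.26 ± 0.20, edgeR adjusted p = 0.455).

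Among receptors and adaptors, 1 of 11 tested genes was called with age, near the share of 11.3% over all genes. Grb14, an adaptor that binds the activated insulin receptor and inhibits it, was at 112 to 169 CPM in YC (median 128), at 81.3 to 108 in OC (median 91.5) and at 90.4 to 122 in OC+SM (median 100.3). The age difference was -0.55 ± 0.10 (edgeR adjusted p = 7.86e-04), with no overlap of YC and OC. Insr, the insulin receptor and closest relative of Igf1r, was at 37.2 to 48.1 CPM in YC, 35.7 to 54.5 in OC and 29.5 to 45.3 in OC+SM. Its Samul-tang difference was -0.29 ± 0.10 (unadjusted p = 0.00863) and was not called (edgeR adjusted p = 0.136), unlike that of Igf1r. Whether the Samul-tang differences of Insr and Igf1r differ from each other was not tested. Shc1, an adaptor leading to the MAP kinase cascade, was at 33.8 to 40.1 CPM in OC and 40.3 to 43.2 in OC+SM without overlap (0.18 ± 0.06, edgeR adjusted p = 0.139).

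Among genes of growth hormone input, the pituitary signal that drives IGF1 output in liver, 1 of 5 tested was called with age. Over all genes 11.3% were called. Stat5b, a transcription factor below the growth hormone and prolactin receptors, was at 34.5 to 40.6 CPM in YC (median 38.0) and 42.5 to 53.7 in OC (median 50.7). It was at 32.3 to 60.6 CPM in OC+SM (median 45.2). The age difference was 0.40 ± 0.10 (edgeR adjusted p = 0.0106), and YC and OC did not overlap. Ghr, the growth hormone receptor, was at 21.1 to 25.1 CPM in OC and 25.9 to 28.6 in OC+SM without overlap, a Samul-tang difference of 0.24 ± 0.08 (edgeR adjusted p = 0.115). Socs2, a feedback inhibitor of this pathway, was at 239 ± 49.3 CPM in YC and 179 ± 12.4 in OC (-0.42 ± 0.15, edgeR adjusted p = 0.0933). The plot of pathway genes shows all 25.

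**Figure D5:**
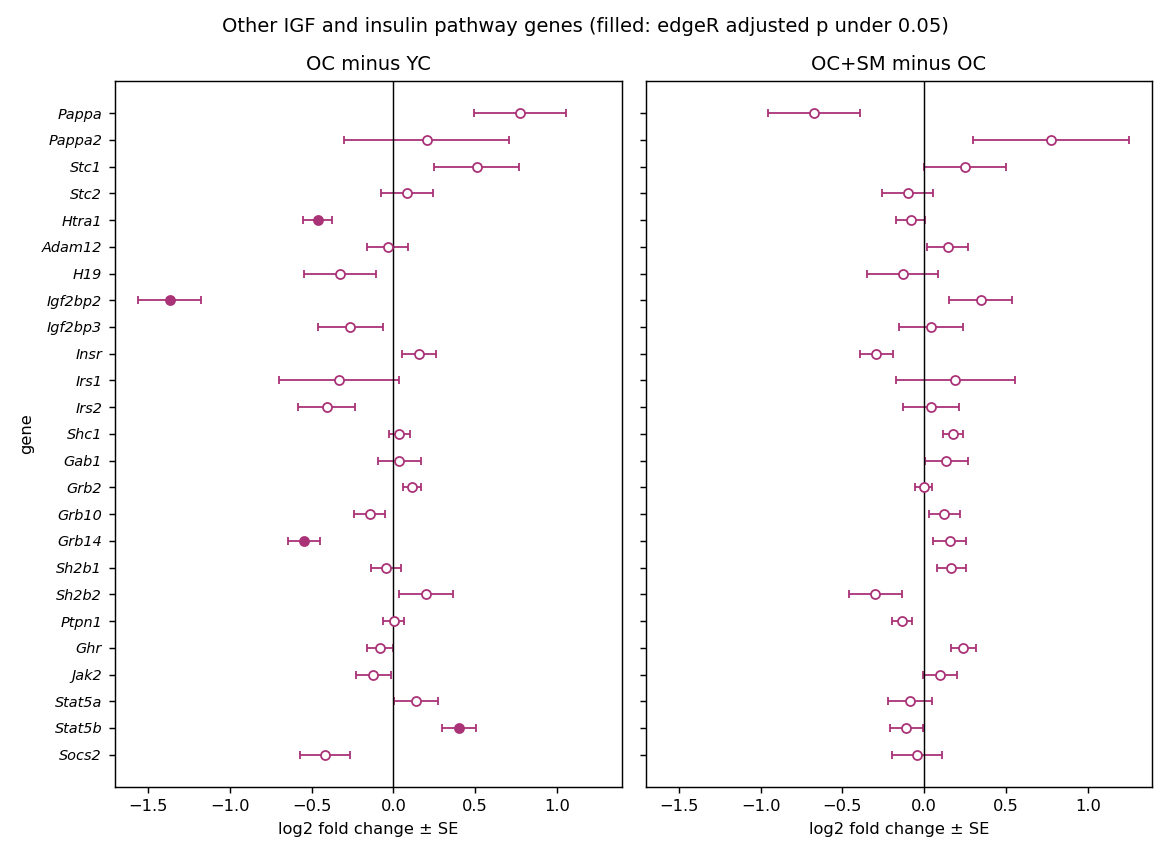
Log2 fold change ± SE (horizontal axes) of the 25 tested genes of the wider IGF and insulin pathway (vertical axis) with age and with Samul-tang, with filled points for edgeR adjusted p under 0.05. With age Htra1, Igf2bp2 and Grb14 are filled to the left of 0 and Stat5b to the right, and with Samul-tang no point is filled.

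RNA of cell type markers also differed with age in these libraries. Of the 55 tested markers, 35 had an unadjusted edgeR p under 0.05 with age, as did 24.0% of all genes tested. Over all genes 5.25% were called higher with age and 6.03% lower. The 6 oocyte markers were all lower in OC, and their summed level was 101 to 159 CPM in YC, 30.6 to 55.9 in OC and 30.4 to 59.4 in OC+SM. Of the 8 granulosa markers 4 were called lower with age, with sums of 1069 to 1566 CPM in YC, 742 to 1181 in OC and 529 to 1264 in OC+SM. Of 5 theca and interstitial markers 3 were called lower, although their sums overlapped (1132 to 1953, 1242 to 1759 and 1367 to 2711 CPM). Of 6 stromal fibroblast markers 2 were called lower, with sums of 851 to 993, 604 to 789 and 695 to 889 CPM. Of 6 smooth muscle and pericyte markers 3 were called lower, with sums of 642 to 982, 578 to 631 and 502 to 617 CPM. Other members of these lists had values above 0 with age, among them Inhbb (0.16) and Inhba (0.01) of the granulosa list, Fdx1 (0.11) of the theca list, and Rgs5 (0.15) and Cspg4 (0.12) of the smooth muscle and pericyte list, none of them called.

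Other lists had members called higher with age, against 5.25% of all genes tested. Of 6 luteal markers 2 were called higher with age, with sums of 8522 to 11528 CPM in YC, 12942 to 15012 in OC and 13411 to 15992 in OC+SM. Of 6 endothelial markers 3 were called higher, with sums of 222 to 262, 279 to 306 and 177 to 286 CPM. Of 5 macrophage markers 2 were called higher, while Adgre1 (-0.28) and Csf1r (-0.13) were below 0 and not called, and the sums overlapped at 94.0 to 174, 134 to 189 and 140 to 226 CPM. Of 2 tested adipocyte markers Fabp4 was called higher and Plin1 was at -0.47 and not called, with sums of 13.5 to 48.2, 41.5 to 88.5 and 33.1 to 104 CPM. Adipoq, also on that list, had too few counts to be tested, with means of 0.0708 CPM in YC, 0.0722 in OC and 0.0749 in OC+SM. Of 4 surface epithelium markers 1, Krt8, was called lower (-0.53). Upk3b (0.28) and Krt19 (0.31) were above 0 and Muc16 (-0.175) was below it, none of them called. The sums of this list were 39.2 to 49.9, 39.4 to 52.4 and 42.3 to 82.9 CPM. With Samul-tang no marker of any list was called by edgeR, and 10 of the 55 tested had an unadjusted p under 0.05, as did 16.9% of all genes. In whole ovary, fewer cells of a type and less RNA per cell cannot be told apart, and the part of cell makeup in the differences of the IGF genes was not tested.

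Within groups, the members did not vary as one. Deviations of log2 CPM from the group means were compared over the 18 libraries, which share depth and composition, and the r values describe these libraries only. Among pairs of members, Igfbp3 and Igfbp5 went in opposite directions (r = -0.69, and -0.53 without YC 3 and OC+SM 6), as did Igf1 and Igf1r (r = -0.53 and -0.56). The highest r was 0.69 between Igfbp2 and Igfbp4, which was -0.07 without those libraries. Igf2r and Igfbp4 also had r = 0.69, which was 0.50 without them. Igfbp3 and Igfbp7 had r = 0.67 and 0.53, and Igfbp4 and Igfbp7 had 0.67 and 0.36. Igf1r and Igfbp5 had r = -0.53 and -0.42, while Igfbp5 and Igfbp7 had -0.53 and 0.05.

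Across all genes with a mean of at least 5 CPM, those most like a called member were named as a description. For Igf1r they were Ddx19a (r = 0.89), Aebp1 (0.87) and Atf7ip (0.86), with 0.89, 0.82 and 0.83 without YC 3 and OC+SM 6. For Igfbp3 they were Rfk (0.85), Kdr (0.83), the endothelial receptor of vascular endothelial growth factor, and Sox13 (0.83), with 0.78, 0.75 and 0.80. For Igf2 they were Stx17 (0.80), Parp6 (0.79) and Msl2 (0.77), with 0.79, 0.81 and 0.77.

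For the other called members the likeness depended more on those libraries. For Igfbp4 they were Bgn (0.92), a matrix proteoglycan, Gamt (0.91) and C1qtnf6 (0.89), and without YC 3 and OC+SM 6 the values were 0.79, 0.44 and 0.34. For Igfbp5 they were Leng1, Nop14 and Dhx29 (each 0.87), with 0.66, 0.54 and 0.54. For Igfbp6 they were S100a11 (0.85), Ak3 (0.85) and Gnas (0.84), with 0.64, 0.62 and 0.61.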

How the data were processed

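Total RNA of 18 mouse ovary samples (6 YC, 6 OC and 6 OC+SM) was sequenced from the 3' end with the QuantSeq kit, per the labels' protocols. Reads were checked with FastQC 1.9, per the submitters' processing notes, which further list STAR 2.7.9a, the counter RSEM 1.3.3 and the GRCm39 build. Annotation and strand setting: not given in the sources used here. Per the file headers, each library's deposited table gives expected counts, TPM and an abundance-weighted transcript length for 55416 genes, computed by the authors. RSEM shares reads among similar features, and 87.4% of its expected counts were whole to within 0.005. TPM divides by transcript length, which does not suit 3' tags, and served as an alternative and for comparing genes with each other.

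Symbols were matched by gene identifier to GENCODE M21 for 52083 genes. Expected counts were rounded. The edgeR 4.0.16 filter (at least 10 counts in about the smallest group and 15 in all) left 16959 genes. TMM scaling and the robust two-sided quasi-likelihood test (R 4.3.3) were fitted to all 18 libraries with 3 group means and no covariate, and p-values were adjusted by the Benjamini-Hochberg method over all genes. Deposited length was tested with limma 3.58.1 as log2 bases. Library measures were compared by exact permutation. Alternatives were RLE scaling, DESeq2 1.42.0, limma-voom, other filters, 12 libraries only, a replicate block, TPM with pseudocounts of 1 and 0.1, thinning to the smallest library, leaving out each library, and 4 added after the data were seen. The scripts were tested on simulated counts. Of 100 genes changed 1.5-fold in simulated OC libraries, 43% were recovered in OC minus YC and 45% in OC+SM minus OC. Of 100 genes changed 2-fold, 73% and 69% were recovered. Changes of this size can thus go uncalled. No other genes were changed in the simulation, whereas 11.3% of all genes were called in the real age comparison. The recovered shares therefore need not hold for that comparison. No 2 libraries agreed within sampling noise (chi-square per degree of freedom at least 3.72 in all 153 pairs).

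The members, the pathway and marker lists and the rules were chosen with earlier results of these data known. All 10 members were named. Of the pathway genes, each one called with age or with Samul-tang was named, with up to 3 per group of genes with the smallest p. Likeness took the 3 genes with the highest Pearson r for each called member, leaving out predicted genes and pseudogenes. Promoters came from RefSeq (GRCm38.p6), which held all 10 members by symbol; for members with several promoters none is printed.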

Additional observations from a re-analysis of the deposited data

Results flagged for a closer look

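Of 30 groups (10 genes in 3 groups of 6 mice), 5 had a library whose gap to its nearest neighbour took an unusually large part of the group's range (above Dixon's 95% critical value), where chance alone gives about 1 group in 20. Igfbp4 was at 239 CPM in YC 3, with the next lowest young library at 405 CPM. Igfbp2 was at 25.2 CPM in the same mouse, with the next at 51.7 CPM. Igfbp2 was at 95.7 CPM in OC+SM 4, above the next at 68.3 CPM. Igfbp5 was at 168 CPM in OC+SM 6, above the next at 114 CPM and below every young library. Igf2r was at 98.4 CPM in OC+SM 1, above the next at 82.3 CPM.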

How the results depend on the processing

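The 54 fold changes of the named genes were recomputed under 32 alternatives, of which 28 were planned and 4 were chosen after seeing the data. Of 1726 values, 1614 kept direction and side of the threshold, 64 lost and 21 gained a call, and 27 changed sign, none of them among the 16 called results. The sign was taken after rounding to 2 decimals. With age the count of called members was 5, and 3 to 5 on leaving out 1 library, the 3 without OC 4. With Samul-tang it was 1, and 0 to 1 on leaving out 1 library. That count was 0 with only the 12 compared libraries, with TPM at either pseudocount, without OC+SM 1, 2 and 3, with the most abundant gene's share as a covariate and with the length trend removed. It was 2 without YC 3 and OC+SM 6. Between OC+SM and YC the count was 6, with 4 to 7 on leaving out 1 library, and 3 with TPM at either pseudocount and without OC+SM 1, 2 and 3. The counts of other pathway genes were 4 with age (4 to 6) and 0 with Samul-tang (0 to 0). The mean depth of OC exceeded that of YC by 0.046 (in units of 1000000 counts), and lay below it (-0.089) without the most abundant gene.

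Same-numbered mice of different groups did not deviate together (r from -0.084 to 0.072), and the reported fit used no pairing. Low r values cannot exclude a pairing with a small effect on RNA. With a replicate block the counts of called members were 5 with age, 1 with Samul-tang and 6 between OC+SM and YC, Igfbp4 was at 0.41 and Igf1r at -0.32, and those of other pathway genes were 4 and 0.

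Sign changes among uncalled values, after rounding to 2 decimals, were as follows. H19 with Samul-tang (up to 0.005 on leaving out 1 library) and Shc1 with age (down to -0.004) were not counted by that rule. Igf1 (OC+SM minus YC) was at -0.279 and -0.289 on the TPM scales and -0.007 with the covariate. Leaving out 1 library gave Samul-tang ranges that crossed 0 for Igf2 (-0.140 to 0.077), Igf2r (-0.025 to 0.058), Igfbp2 (-0.059 to 0.144), Igfbp4 (-0.083 to 0.028), Igf2bp3 (-0.024 to 0.181) and Socs2 (-0.139 to 0.033). Without OC+SM 1, 2 and 3, Igf2r was at -0.028 and Igfbp7 at -0.044 with Samul-tang, and Igfbp7 at -0.099 against YC. With the covariate, the Samul-tang values were 0.162 for Igf2, -0.043 for Igf2r, -0.116 for Igfbp7 and 0.013 for Socs2, and Igfbp7 was at 0.007 with age and -0.109 against YC. Without YC 3 and OC+SM 6, Samul-tang gave 0.028 for Igfbp4 and 0.029 for Socs2. Igf2bp3 with Samul-tang was at -0.011 and -0.007 on the TPM scales and -0.146 after thinning, and Insr with age at -0.006 on log2(TPM + 0.1). The cause of these changes was not tested. Depth limits Igf2 most among the members, at 43 to 159 counts per library.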
